A study of Mus musculus with 10 samples.

Results

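C1galt1, Dsel and Fut9 encode 3 enzymes of glycan synthesis, and each is described here with a partner gene, which are C1galt1c1, Dse and Fut8. The 6 genes were found by symbol in the count tables of all 10 libraries, where they are 6 of 48709 genes. All 6 had enough counts to be tested, as had 16884 genes in all. They were chosen with their values against control in these same libraries known, so each difference from control is given as a description, and calls against control are counted but not read as evidence.

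Glycans are sugar chains that enzymes of the Golgi build onto proteins and lipids. Mucin-type O-glycans start with N-acetylgalactosamine on serine or threonine, and C1galt1 (the T synthase) adds the galactose that extends this first sugar, an enzyme that folds only with its chaperone C1galt1c1 (Cosmc). Dermatan sulfate arises when the epimerases Dse and Dsel turn glucuronic acid of a chondroitin chain into iduronic acid. Such chains sit on proteoglycans of the brain's extracellular matrix. Fut9 adds the fucose of the Lewis x epitope, which neural cells carry, and Fut8 adds the core fucose at the base of N-glycans.

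Polyadenylated RNA came from mouse hippocampal neurons in primary culture that took up lipid nanoparticles from day 10 of culture, with RNA isolated after 48 h on day 12. The nanoparticles held anti-miR-409-5p, which inhibits the microRNA in its name (n = 4 libraries), anti-miR-501-3p, which does the same for its own (n = 4), or scramble RNA (control, n = 2). The series concerns microRNAs linked to exercise and asks how neurons fare once they are silenced. Mature microRNAs are not measured in polyadenylated RNA, so the inhibition itself was not checked here. Every group received nanoparticles, and strain, sex and donor age are not given in the sources used here. Both anti-miR groups are set against the same 2 control libraries, so their differences from control are not independent. The labels do not say whether libraries stem from separate cultures, so p-values measure the spread between libraries alone.

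The targeted microRNAs are shown with their seeds, the bases 2 to 8 that pair with target transcripts, in capitals, because these letters define the sites searched in the 6 genes. The sequences are from RefSeq on GRCm38.p6, at chrX:7241270-7241291 on the minus strand for miR-501-3p and at chr12:109743172-109743194 on the plus strand for miR-409-5p.
mmu-miR-409-5p: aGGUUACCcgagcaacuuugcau
mmu-miR-501-3p: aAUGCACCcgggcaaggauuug
The seeds differ, so the microRNAs share no seed family. For each of the 6, the longest 3′ UTR in the annotation was searched on the strand of the transcript. A miR-409-5p site was GGTAACC, the complement of the seed, or GTAACCA, which drops a seed base for an adenine at the end. A miR-501-3p site was GGTGCAT or, in the same shifted form, GTGCATA. The 8-base forms GGTAACCA (miR-409-5p) and GGTGCATA (miR-501-3p) hold both shorter ones.

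No miR-409-5p site was found in the 3′ UTR of any of the 6 genes, and a miR-501-3p site was found in Fut9 and in Fut8. They are printed with their flanks, with the site in capitals, from the longest mm10 transcripts of these genes.
Fut9: taagttgatatGTGCATAtatttgagttc
Fut8: tggcttcagctGGTGCATAttttgaagttg
The Fut9 site starts at base 4333 of a 3′ UTR of 10401 bases. Among the 101 tested genes with a 3′ UTR of similar length (0.8 to 1.25 times as long), 54.5% held a miR-501-3p site and 37.6% held a miR-409-5p site. The Fut8 site starts at base 872 of 1022 bases, and 7.83% of 2095 genes with a 3′ UTR of similar length held such a site. Over all 14232 tested genes with a 3′ UTR, 13.6% held a miR-501-3p site and 10.5% held a miR-409-5p site. C1galt1, C1galt1c1, Dsel and Dse held neither. A match is a description of the letters and not a measured site of binding.

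Of the series as a whole, total gene counts per library ran between 22254788 and 32096808. Against control, 2634 genes passed the threshold as higher and 2062 as lower with anti-miR-409-5p, against 2974 as higher and 2605 as lower with anti-miR-501-3p (edgeR's quasi-likelihood test, Benjamini-Hochberg adjusted p at most 0.05). With upper-quartile scaling these splits were 2233 and 3074 under anti-miR-409-5p, and 2540 and 3607 under anti-miR-501-3p. Without control replicate 1, 1302 genes were called under anti-miR-409-5p and 1800 under anti-miR-501-3p. Fold changes followed transcript GC content. The slope of a library's log2 counts on GC content, per 10 percentage points, lay between −0.11 and 0.038 in anti-miR-409-5p libraries, between −0.13 and 0.0078 in anti-miR-501-3p libraries, and at 0.20 and 0.27 in control libraries.

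C1galt1 (ENSMUSG00000042460, mm10 chromosome 6, 7844842 to 7875687, plus strand) was higher in every anti-miR library than in either control library. It had 44.1, 47.9, 50.6 and 51.4 CPM (counts scaled to library size by TMM) with anti-miR-409-5p, in replicates 1 to 4, and 49.5, 53.3, 52.6 and 52.3 CPM with anti-miR-501-3p, in the same order, against 27.0 and 31.8 CPM in control replicates 1 and 2. Neither anti-miR group overlapped with control, and the lowest anti-miR library was anti-miR-409-5p replicate 1. The mean was 48.5 ± 3.32 CPM under anti-miR-409-5p, 51.9 ± 1.68 CPM under anti-miR-501-3p and 29.4 ± 3.42 CPM in control (SD). That is 1.65 times control under anti-miR-409-5p and 1.77 times control under anti-miR-501-3p. The fitted log2 fold change was 0.72 ± 0.07 under anti-miR-409-5p and 0.82 ± 0.07 under anti-miR-501-3p (SE). These changes lay above those of 97.4% of all tested genes under anti-miR-409-5p and 97.7% under anti-miR-501-3p.

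C1galt1c1, the chaperone of C1galt1 (ENSMUSG00000048970, chromosome X, 38630785 to 38635087, minus strand), differed far less. It had 18.7, 17.6, 18.6 and 18.4 CPM under anti-miR-409-5p and 17.9, 18.7, 17.2 and 19.2 CPM under anti-miR-501-3p, against 16.2 and 16.7 CPM in control. Every anti-miR library lay above both controls, by a small margin. The log2 fold change was 0.15 ± 0.07 under each anti-miR. Its 95% interval, not adjusted and given as a description, ran from 0.016 to 0.29 under anti-miR-409-5p and from 0.014 to 0.29 under anti-miR-501-3p. As counted, C1galt1c1 was called under neither anti-miR. Enzyme and chaperone have a like GC content, 39.8% in the C1galt1 transcript and 39.1% in the C1galt1c1 transcript. Their transcripts differ in length, with 6092 bases for C1galt1 and 1449 bases for C1galt1c1.

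Of the epimerases of dermatan sulfate, Dsel (ENSMUSG00000038702, chromosome 1, 111858702 to 111864918, minus strand) was higher in every anti-miR library. It had 32.8, 34.6, 35.7 and 37.3 CPM under anti-miR-409-5p and 35.4, 37.6, 36.5 and 37.5 CPM under anti-miR-501-3p, against 22.5 and 22.8 CPM in control. All 8 anti-miR libraries lay above both controls, which differed little from each other. The mean was 1.55 times control under anti-miR-409-5p and 1.62 times control under anti-miR-501-3p. The log2 fold change was 0.63 ± 0.06 under anti-miR-409-5p and 0.70 ± 0.06 under anti-miR-501-3p.

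Dse, the other epimerase (ENSMUSG00000039497, chromosome 10, 34151393 to 34207715, minus strand), had values that overlapped between all groups. It had 11.1, 11.5, 13.7 and 11.9 CPM under anti-miR-409-5p and 12.1, 12.5, 12.6 and 12.0 CPM under anti-miR-501-3p, against 11.7 and 12.5 CPM in control. The highest and the lowest library were both in the anti-miR-409-5p group. The log2 fold change was −0.016 ± 0.08 under anti-miR-409-5p and 0.019 ± 0.08 under anti-miR-501-3p, where the sign of the anti-miR-501-3p value turned with upper-quartile scaling (−0.022) and total-count scaling (−0.030). The 95% interval ran from −0.19 to 0.16 under anti-miR-409-5p and from −0.15 to 0.19 under anti-miR-501-3p.

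Fut9, the Lewis x fucosyltransferase (ENSMUSG00000055373, chromosome 4, 25609332 to 25800244, minus strand), differed most from control among the 6 genes. It had 83.1, 102, 116 and 125 CPM under anti-miR-409-5p and 99.4, 118, 114 and 118 CPM under anti-miR-501-3p, against 48.7 and 57.5 CPM in control. The groups did not overlap with control, and replicate 1 was the lowest library of each anti-miR group. The mean was 107 ± 18.3 CPM under anti-miR-409-5p, 113 ± 8.96 CPM under anti-miR-501-3p and 53.1 ± 6.22 CPM in control (SD). The log2 fold change was 1.01 ± 0.17 under anti-miR-409-5p and 1.08 ± 0.17 under anti-miR-501-3p, and its SE was the widest of the 6 genes. These changes lay above those of 99.1% of tested genes under anti-miR-409-5p and 99% under anti-miR-501-3p.

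Fut8, which makes core fucose (ENSMUSG00000021065, chromosome 12, 77238125 to 77476338, plus strand), stood close to control. It had 97.8, 93.0, 100.4 and 96.1 CPM under anti-miR-409-5p and 89.0, 96.0, 95.8 and 100.9 CPM under anti-miR-501-3p, against 86.5 and 90.4 CPM in control. All anti-miR-409-5p libraries lay above the controls, whereas anti-miR-501-3p replicate 1 lay between them. The log2 fold change was 0.13 ± 0.05 under anti-miR-409-5p and 0.11 ± 0.05 under anti-miR-501-3p. Its 95% interval, not adjusted and given as a description, ran from 0.025 to 0.23 under anti-miR-409-5p and from 0.0056 to 0.21 under anti-miR-501-3p. Fut8 was called under neither anti-miR, except in the alternative settings given below. Fut8 shares 75 exon bases with 9530018F02Rik on the mm10 annotation, and the exons of the other 5 genes overlap no other gene.

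**Figure D1:**
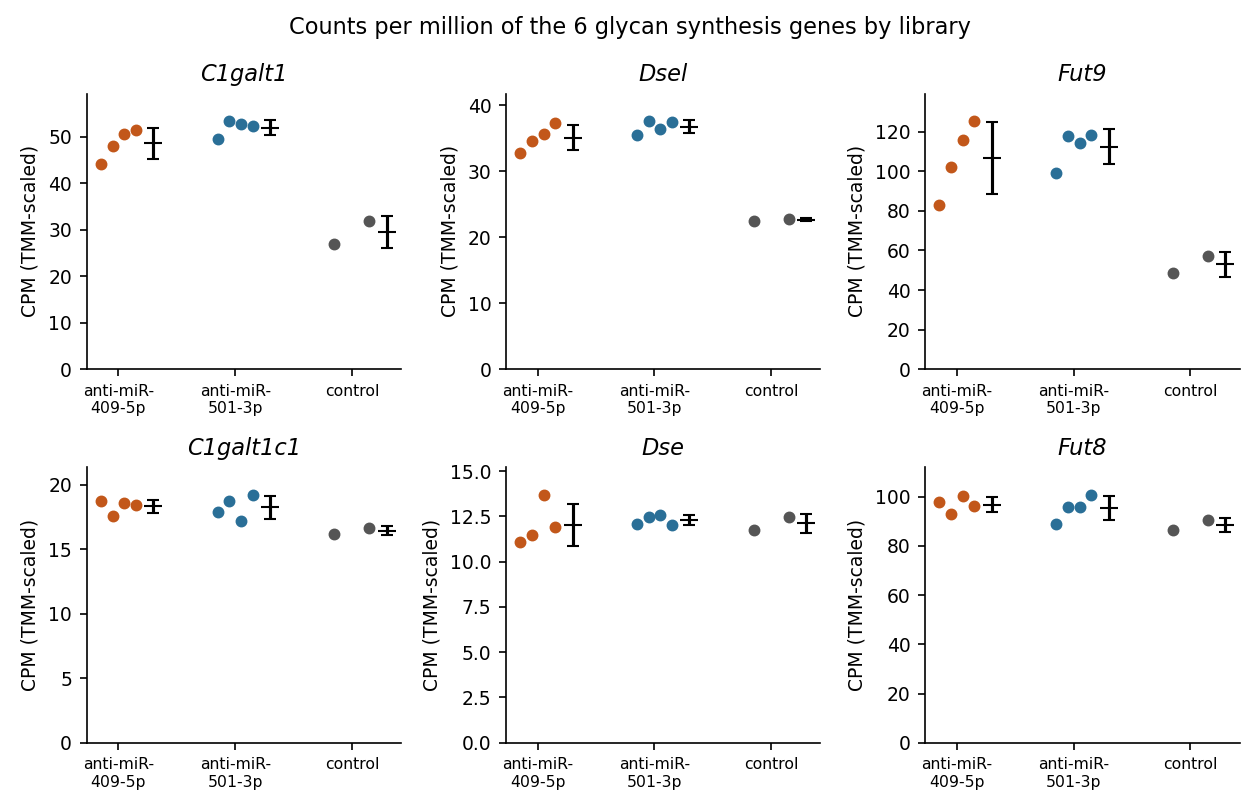
TMM-scaled CPM (vertical axis) of the 6 genes in each library (points, replicate 1 leftmost in each group), with group means and SD (bars) for anti-miR-409-5p, anti-miR-501-3p and control. C1galt1, Dsel and Fut9 in the upper panels lie above both controls in all 8 anti-miR libraries, while their partners in the lower panels differ less from control. C1galt1c1 also lies above both controls in all 8, by a small margin.

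By the threshold on adjusted p, 3 of the 6 genes (C1galt1, Dsel and Fut9) were higher and 0 were lower under each anti-miR. Over all tested genes, 15.6% were called higher and 12.2% lower with anti-miR-409-5p, against 17.6% higher and 15.4% lower with anti-miR-501-3p. Without control replicate 1, the count under anti-miR-409-5p was 2, since Fut9 was no longer called. With all libraries kept, Fut8 was called higher as well under anti-miR-409-5p in some alternative settings. These were no low-count filter, DESeq2 size factors, DESeq2, and only the groups compared. Fut8 was also called higher under anti-miR-409-5p when anti-miR-409-5p replicate 2, anti-miR-501-3p replicate 1 or anti-miR-501-3p replicate 4 was left out. Under anti-miR-501-3p it was called higher when anti-miR-501-3p replicate 1 was left out. All libraries lay above both controls for 5 of the 6 genes under anti-miR-409-5p, as for 24.1% of all tested genes, and for 4 of the 6 genes under anti-miR-501-3p, as for 24.3% of all tested genes. Since the genes were chosen on these comparisons, nothing is read from the counts. The median log2 fold change of the 6 genes was 0.39 under anti-miR-409-5p and 0.42 under anti-miR-501-3p, against −0.012 over all tested genes in each comparison. The authors' deposited tables give C1galt1 a log2 fold change of 0.73 under anti-miR-409-5p and 0.82 under anti-miR-501-3p. In the authors' deposited tables Dsel has 0.64 and Fut9 1.01 under anti-miR-409-5p, and Dsel has 0.70 and Fut9 1.09 under anti-miR-501-3p.

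Levels of different genes were compared per length, as CPM per kb of annotated exon sequence, which counts all exons of a gene as used. In control the order was C1galt1c1 (11.3 ± 0.236), Fut8 (11.2 ± 0.347), C1galt1 (4.83 ± 0.561), Dsel (3.93 ± 0.0365), Fut9 (3.84 ± 0.450) and Dse (2.43 ± 0.107 CPM per kb, SD). C1galt1c1 and Fut8 did not differ beyond their spread, nor did Dsel and Fut9. Under anti-miR-409-5p, C1galt1c1 stood at 12.6, Fut8 at 12.3, C1galt1 at 7.97, Fut9 at 7.71, Dsel at 6.09 and Dse at 2.42 CPM per kb. Under anti-miR-501-3p, C1galt1c1 stood at 12.6, Fut8 at 12.1, C1galt1 at 8.52, Fut9 at 8.14, Dsel at 6.37 and Dse at 2.47 CPM per kb. C1galt1 and Fut9 did not differ beyond their spread in either anti-miR group. Within control, the per-length level of Dse lay above that of 41.8% of tested genes and that of C1galt1c1 above 75.2%, with the other 4 genes between them.

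The comparison of the anti-miRs with each other was not used to choose the genes and was tested. None of the 6 genes passed the threshold between the anti-miRs, and 0% of the 16884 tested genes were called (0 genes by edgeR, 992 or 5.88% at an unadjusted p under 0.05, and 3 by DESeq2). C1galt1 had the largest difference, a log2 value of −0.098 for anti-miR-409-5p over anti-miR-501-3p (95% interval −0.21 to 0.014, adjusted p = 0.871, edgeR). Dsel differed by −0.066 (−0.16 to 0.029, adjusted p = 0.874, edgeR). Fut9 differed by −0.077 (−0.38 to 0.22, adjusted p = 0.949, edgeR), the widest interval of the 6. For C1galt1c1 the difference was 0.0024 (−0.11 to 0.11), for Dse −0.035 (−0.18 to 0.11) and for Fut8 0.020 (−0.064 to 0.10). The libraries of the 2 groups overlapped for all 6 genes, whereas 1.66% of tested genes lay wholly above and 1.81% wholly below in anti-miR-409-5p. The labels do not say whether same-numbered libraries belong together. All 4 same-numbered pairs of anti-miR libraries deviated together from their group means (r between 0.121 and 0.375). Differently numbered anti-miR libraries had r of up to 0.177 (anti-miR-409-5p replicate 3 with anti-miR-501-3p replicate 4). Over all groups, r was over 0.1 in 7 of 8 same-numbered and in 5 of 24 differently numbered pairs. The 2 controls deviate from their own mean by equal and opposite amounts, so the pairs with control in these counts are not separate. With the replicate number as a block, 252 genes or 1.49% were called, none of them among the 6. C1galt1 was then at −0.10 ± 0.03 (SE, adjusted p = 0.16, edgeR), Dsel at −0.068 ± 0.04 (adjusted p = 0.478, edgeR) and Fut9 at −0.088 ± 0.05 (adjusted p = 0.577, edgeR). C1galt1 and Dsel were lower under anti-miR-409-5p in 4 of 4 pairs, Dse in 3, and Fut9, C1galt1c1 and Fut8 in 2. The share of all tested genes that were lower in every pair is not given here, so nothing is read from these counts. With the GC and length trend removed, the Fut9 difference turned to 0.027, with the block and without it, and did not pass the threshold. The part of the miR-501-3p sites of Fut9 and Fut8 in these values was not tested.

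Within a library, the ratio of a gene to its partner needs no scaling factor. C1galt1 had 2.35, 2.73, 2.73 and 2.80 counts per count of C1galt1c1 under anti-miR-409-5p and 2.77, 2.85, 3.06 and 2.72 under anti-miR-501-3p, against 1.67 and 1.91 in control. Dsel had 2.96, 3.01, 2.60 and 3.12 counts per count of Dse under anti-miR-409-5p and 2.94, 3.01, 2.89 and 3.11 under anti-miR-501-3p, against 1.92 and 1.83 in control. Both ratios were higher in all 8 anti-miR libraries than in either control. Fut9 had 0.850, 1.10, 1.15 and 1.30 counts per count of Fut8 under anti-miR-409-5p and 1.12, 1.23, 1.19 and 1.17 under anti-miR-501-3p, against 0.562 and 0.635 in control. The log2 ratio of Fut9 to Fut8 averaged 0.12 ± 0.26 under anti-miR-409-5p and 0.24 ± 0.058 under anti-miR-501-3p, against −0.74 ± 0.12 in control (SD). Fut8 had more counts than Fut9 in both controls and in anti-miR-409-5p replicate 1, and fewer in the other 7 libraries. Between the anti-miRs, the log2 ratio for anti-miR-409-5p minus anti-miR-501-3p was −0.11 for C1galt1 over C1galt1c1 (p = 0.2), −0.034 for Dsel over Dse (p = 0.8) and −0.11 for Fut9 over Fut8 (p = 0.543), by two-sided exact permutation tests over 70 splits. Adjusted over the 3 pairs, the exact p-values were 0.6, 0.8 and 0.8, and the smallest that 70 splits can give is 0.0286. With signs flipped within same-numbered pairs, a test added after the data were seen, the two-sided exact p-values were 0.25 for C1galt1 over C1galt1c1, 1 for Dsel over Dse and 0.375 for Fut9 over Fut8, where 16 flips can give no less than 0.125.

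**Figure D2:**
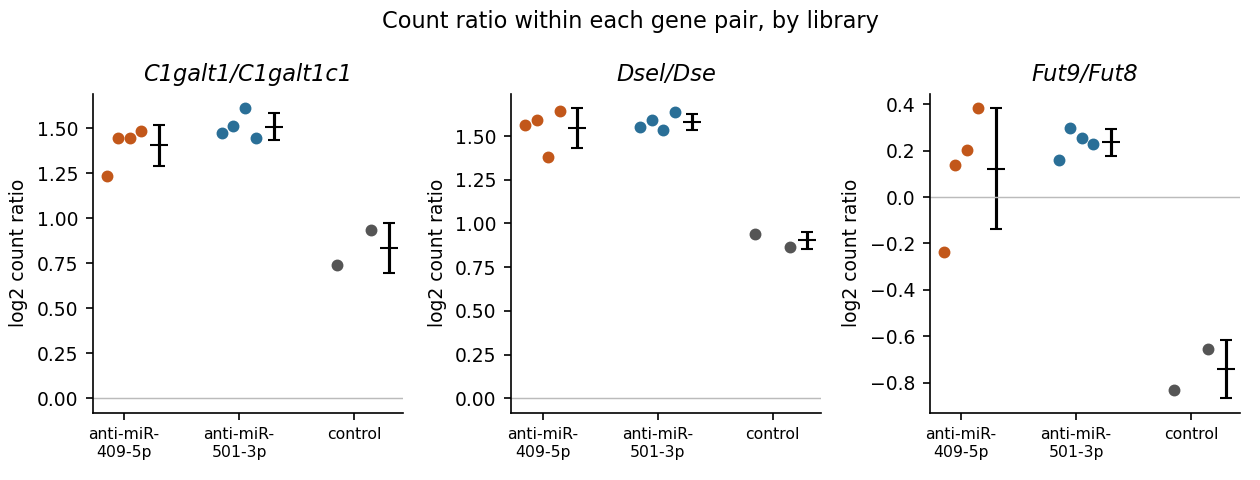
Log2 ratio of counts within each gene pair (vertical axis) per library (points), with group means and SD (bars) for anti-miR-409-5p, anti-miR-501-3p and control. All 8 anti-miR libraries lie above both controls in each pair, and the 2 anti-miR groups overlap.

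Transcript GC content moved with the fold changes. The GC content was 34.98% in Fut9, 39.8% in C1galt1, 39.1% in C1galt1c1, 40.8% in Dsel, 43.0% in Fut8 and 48.3% in Dse, against a median of 49.8% over tested genes. The first 5 of these lie below the lower quartile of 45.1%. Across tested genes, Spearman's rho of log2 fold change with GC content was −0.709 for anti-miR-409-5p and −0.713 for anti-miR-501-3p against control, as a description in which all genes share the same libraries. A fit of each library's trend on GC content and transcript length was therefore removed in an alternative analysis.

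With that trend removed, C1galt1 had a log2 fold change of 0.34 ± 0.05 under anti-miR-409-5p and 0.39 ± 0.05 under anti-miR-501-3p, which is 1.26 times control under anti-miR-409-5p and 1.31 times control under anti-miR-501-3p. Dsel had 0.30 ± 0.05 under anti-miR-409-5p and 0.34 ± 0.05 under anti-miR-501-3p. Fut9 had 0.23 ± 0.04 under anti-miR-409-5p and 0.20 ± 0.04 under anti-miR-501-3p, the largest drop of the 6 genes. The order therefore changed, with Fut9 below C1galt1 and Dsel. C1galt1c1 took the opposite sign, with −0.20 ± 0.07 under anti-miR-409-5p and −0.27 ± 0.07 under anti-miR-501-3p. Fut8 also turned, to −0.082 ± 0.04 under anti-miR-409-5p and −0.13 ± 0.04 under anti-miR-501-3p. Dse stayed near 0, at −0.064 ± 0.08 under anti-miR-409-5p and −0.025 ± 0.08 under anti-miR-501-3p. With the trend removed, C1galt1, Dsel and Fut9 passed the threshold as higher under each anti-miR. C1galt1c1 and Fut8 passed it as lower under anti-miR-501-3p, with the replicate block and without it, but not under anti-miR-409-5p. Of all tested genes, 5.28% were called in either direction under anti-miR-409-5p and 7.86% under anti-miR-501-3p. Again nothing is read from the calls of the 6 genes. By log2 fold change with the trend removed, C1galt1 lay above 94.3% of tested genes, Dsel above 93.5% and Fut9 above 90.3% under anti-miR-409-5p. Under anti-miR-501-3p C1galt1 lay above 95%, Dsel above 93.8% and Fut9 above 87.4%. The part of GC content in the values as counted was not tested beyond this.

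**Figure D3:**
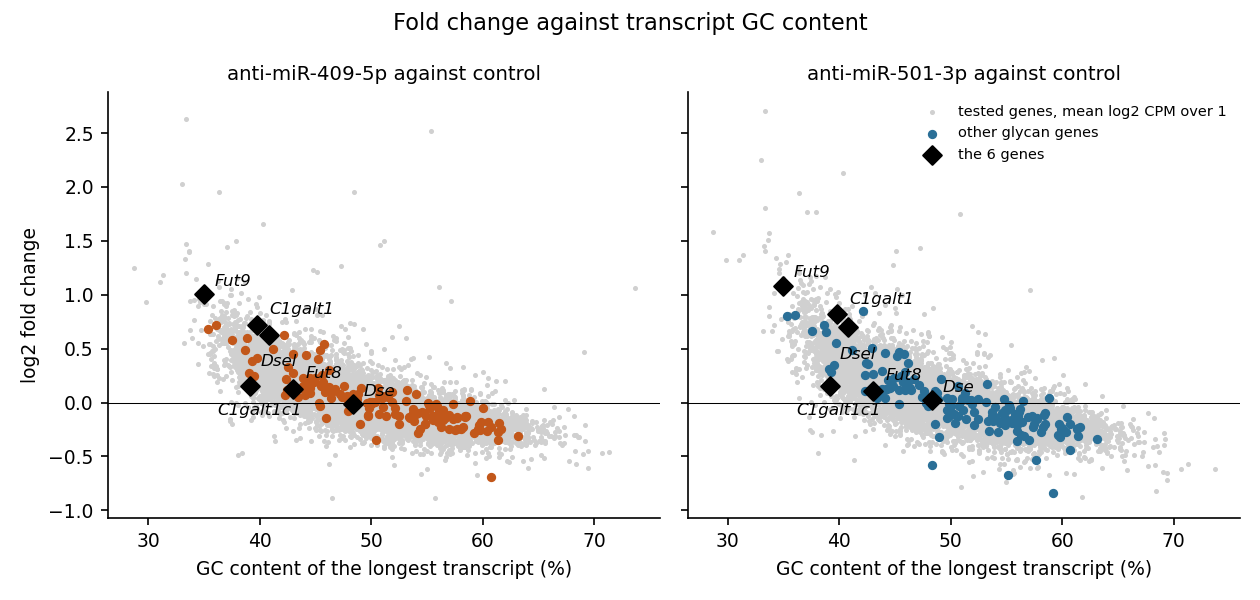
Log2 fold change against control (vertical axis) over GC content of the longest transcript in percent (horizontal axis) for tested genes (grey), other glycan genes (coloured) and the 6 genes (black diamonds). Fold changes fall as GC content rises, and Fut9, with 34.98% GC, stands highest of the 6. C1galt1 stands above C1galt1c1 at a like GC content, but its transcript is longer (6092 against 1449 bases).

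**Figure D4:**
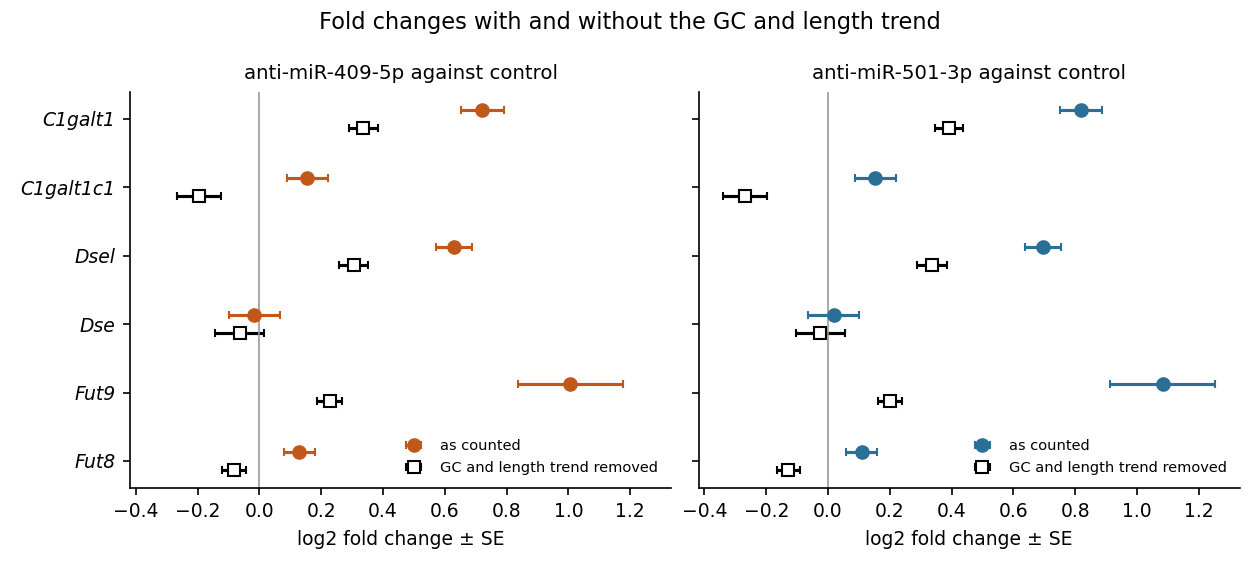
Log2 fold change with SE (horizontal axis) of the 6 genes in the comparison of each anti-miR with control, as counted (filled) and with the GC and length trend removed (open). Removing the trend lowers Fut9 to 0.23 under anti-miR-409-5p and 0.20 under anti-miR-501-3p, leaves C1galt1 and Dsel above 0.30, and puts C1galt1c1 and Fut8 below 0.

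The genes whose pattern over the 10 libraries was most like each of the 3 risers were found by the root mean square difference of log2 CPM, each gene centred on its own mean, among 12810 genes. For C1galt1 they were Mgat4c (0.0367), an N-glycan branching gene, mt-Rnr2 (0.0420), the mitochondrial large ribosomal RNA, and Vbp1 (0.0460), a subunit of the prefoldin chaperone. For Dsel they were Xiap (0.0388), an inhibitor of apoptosis, Gmfb (0.0389) and Cops2 (0.0398), a subunit of the COP9 signalosome. For Fut9 they were Tmem47 (0.0370), AI504432 (0.0470) and Ube2v2 (0.0512), a ubiquitin-conjugating enzyme variant. By the same measure C1galt1 varied by 0.323, Dsel by 0.270 and Fut9 by 0.449 about their own means. All 9 transcripts had a GC content between 34.1% and 39.4%.

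The other genes around these steps were counted in 8 lists of glycan genes, of which 151 genes besides the 6 were tested. With anti-miR-409-5p, 24 of the 151 were called higher and 25 lower, or 32.5% against 27.8% of all tested genes. With anti-miR-501-3p, 31 were called higher and 35 lower, or 43.7% against 33% of all tested genes. Their median log2 fold change was −0.015 under anti-miR-409-5p and −0.034 under anti-miR-501-3p, against −0.012 over all tested genes in each. With upper-quartile scaling the splits were 21 and 39 with anti-miR-409-5p, and 24 and 45 with anti-miR-501-3p. Without control replicate 1, 18 were called under anti-miR-409-5p and 24 under anti-miR-501-3p. Under anti-miR-409-5p, 31 were called without its replicate 3 and 32 without its replicate 4. Between the anti-miRs, edgeR called none of the 151 without a block, and DESeq2 called 0. An unadjusted p under 0.05 was found for 10 of them, and for 5.88% of all tested genes. With the replicate block 4 of the 151 were called, where 1.49% of all tested genes were called. These 4 are named here after their values were seen. For anti-miR-409-5p over anti-miR-501-3p the log2 values were 0.22 for Bcan (adjusted p = 0.0126, edgeR), 0.085 for Ptprz1 (adjusted p = 0.0379), −0.26 for Dcn (adjusted p = 0.0175) and −0.24 for B3gnt5 (adjusted p = 0.0221). The first 3 of these are core proteins of proteoglycans, and their calls held with the block and the trend removed together, whereas that of B3gnt5 did not. Dcn was also called without the low-count filter. It is also among the markers of endothelial, mural and fibroblast cells that are summed below. The part of cell makeup in these differences was not tested.

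Called genes of the lists were split by GC content. The median GC content was 43.4% in those higher and 57.5% in those lower under anti-miR-409-5p, and 44.1% in those higher and 56.6% in those lower under anti-miR-501-3p. With the GC and length trend removed, 6 of the 151 genes were called under anti-miR-409-5p, where 5.28% of all tested genes were called. Of the 49 calls as counted, 5 held in the same direction. These were Man1a, Hs6st2, St6gal2, B4galt6 and Hs2st1, and B4galt5 was called in addition. Under anti-miR-501-3p 10 of the 151 were called, where 7.86% of all tested genes were called. Of the 66 calls as counted, 9 held, which were the same 5 with Chsy1, Mgat2, Gne and Fuca1. Ugp2 was called in the opposite direction. Each called gene of the lists named without a remark on the trend lost its call when the trend was removed. Values of single genes in the lists are log2 fold changes with SE, with edgeR's adjusted p.

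In the mucin-type O-glycan list, to which C1galt1 and C1galt1c1 belong, 4 of 25 other genes were higher and 6 lower with anti-miR-409-5p, and 5 higher and 7 lower with anti-miR-501-3p. Galnt13, a transferase that adds the first sugar of these chains, rose, with 20.9 ± 3.13 CPM under anti-miR-409-5p, 22.1 ± 0.920 CPM under anti-miR-501-3p and 13.9 ± 1.26 CPM in control (SD). Its log2 fold change was 0.58 ± 0.11 under anti-miR-409-5p (adjusted p = 0.00188) and 0.66 ± 0.11 under anti-miR-501-3p (adjusted p = 0.000557). Galnt9, of the same enzyme family, fell by 0.21 under anti-miR-409-5p and by 0.20 under anti-miR-501-3p on the log2 scale. Without control replicate 1, its adjusted p was 0.118 under anti-miR-409-5p and 0.103 under anti-miR-501-3p. Gcnt1, which branches the chain that C1galt1 makes, had 0.474 CPM under anti-miR-409-5p, 0.567 CPM under anti-miR-501-3p and 0.310 CPM in control, and was not called.

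In the list of the proteoglycan linker and chondroitin or dermatan sulfate, around Dsel and Dse, 1 of 20 other genes was higher and 3 lower with anti-miR-409-5p, and 2 higher and 4 lower with anti-miR-501-3p. Csgalnact2, which starts the chondroitin chain, rose, with a log2 fold change of 0.41 ± 0.07 under anti-miR-409-5p (adjusted p = 0.000495) and 0.55 ± 0.07 under anti-miR-501-3p (adjusted p = 2.78e-05). B3gat3, which completes the linker to the core protein, fell by 0.25 under anti-miR-409-5p (adjusted p = 0.00184) and by 0.23 under anti-miR-501-3p (adjusted p = 0.00234), where its sign turned to 0.031 with the trend removed. Chpf, a cofactor of chain polymerisation, fell by 0.31 under anti-miR-409-5p and by 0.33 under anti-miR-501-3p, and without control replicate 1 its adjusted p under anti-miR-409-5p was 0.0536. The sulfotransferase of dermatan sulfate, Chst14, had 1.88 ± 0.372 CPM under anti-miR-409-5p, 1.65 ± 0.209 CPM under anti-miR-501-3p and 2.03 ± 0.153 CPM in control, and was not called. Chsy1, a chondroitin synthase, rose by 0.17 under anti-miR-501-3p (adjusted p = 0.0476) and kept its call with the trend removed, at 0.26.

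In the fucosylation list, around Fut9 and Fut8, 1 of 13 other genes was higher and 2 lower with anti-miR-409-5p, and 2 higher and 6 lower with anti-miR-501-3p. Fpgt, which makes GDP-fucose in the salvage route, had a log2 fold change of 0.24 ± 0.07 under anti-miR-409-5p (adjusted p = 0.0179) and 0.35 ± 0.07 under anti-miR-501-3p (adjusted p = 0.00131). Under anti-miR-409-5p its adjusted p was 0.195 without control replicate 1 and 0.0511 without anti-miR-409-5p replicate 4, and with the trend removed its sign turned to −0.14 under anti-miR-409-5p and −0.089 under anti-miR-501-3p. Pofut2, which places fucose directly on serine or threonine, fell by 0.25 under anti-miR-409-5p and by 0.28 under anti-miR-501-3p. Without control replicate 1 its adjusted p was 0.257 under anti-miR-409-5p and 0.162 under anti-miR-501-3p. Fuca1, the lysosomal fucosidase, fell by 0.27 under anti-miR-501-3p, and its value of −0.14 with anti-miR-409-5p was not called. Without control replicate 1 the adjusted p of Fuca1 under anti-miR-501-3p was 0.0995, and with the trend removed it kept a call at −0.16. Fut4, another Lewis x fucosyltransferase, had too few counts to be tested, at 0.189 CPM under anti-miR-409-5p, 0.257 CPM under anti-miR-501-3p and 0.192 CPM in control.

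In the list of N-glycan branching and galactosylation, 6 of 25 genes were higher and 5 lower with anti-miR-409-5p, and 7 higher and 6 lower with anti-miR-501-3p. Mgat4c rose by 0.68 ± 0.09 under anti-miR-409-5p (adjusted p = 7.2e-05) and by 0.80 ± 0.09 under anti-miR-501-3p (adjusted p = 1.01e-05), and with the trend removed it stood at −0.036 under anti-miR-409-5p and −0.033 under anti-miR-501-3p. Man1a, a mannosidase that trims N-glycans, rose by 0.49 ± 0.07 under anti-miR-409-5p (adjusted p = 0.000229) and by 0.47 ± 0.07 under anti-miR-501-3p (adjusted p = 0.000193). With the trend removed Man1a kept 0.35 under anti-miR-409-5p and 0.32 under anti-miR-501-3p, and B4galt6, a galactosyltransferase of glycolipids, kept 0.19 under anti-miR-409-5p and 0.25 under anti-miR-501-3p.

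Of the sialylation genes, 5 of 17 were higher and 1 lower with anti-miR-409-5p, and 6 higher and 3 lower with anti-miR-501-3p. St8sia4, a polysialyltransferase, rose by 0.72 ± 0.09 under anti-miR-409-5p (adjusted p = 9.86e-05) and by 0.81 ± 0.09 under anti-miR-501-3p (adjusted p = 2.29e-05), and with the trend removed it had 0.049 under anti-miR-409-5p and 0.056 under anti-miR-501-3p. St6gal2, a sialyltransferase of terminal galactose, rose by 0.45 ± 0.07 under anti-miR-409-5p and by 0.51 ± 0.07 under anti-miR-501-3p, and with the trend removed it kept 0.22 under anti-miR-409-5p and 0.26 under anti-miR-501-3p.

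In the heparan sulfate list, 2 of 20 genes were higher and 1 lower with anti-miR-409-5p, and 3 higher and 5 lower with anti-miR-501-3p. The sulfotransferase Hs6st2 rose by 0.40 ± 0.07 under anti-miR-409-5p (adjusted p = 0.00091) and by 0.44 ± 0.07 under anti-miR-501-3p (adjusted p = 0.000327). Hs2st1, another sulfotransferase of heparan sulfate, rose by 0.25 ± 0.04 under each anti-miR. Sulf2 had −0.14 under anti-miR-409-5p (adjusted p = 0.0303) and −0.17 under anti-miR-501-3p (adjusted p = 0.00836). Without anti-miR-409-5p replicate 2, the adjusted p of Sulf2 under anti-miR-409-5p was 0.0958. Extl3 had −0.16 under anti-miR-501-3p (adjusted p = 0.00688), and its value of −0.094 under anti-miR-409-5p was not called. With the trend removed Hs6st2 kept 0.26 under anti-miR-409-5p and 0.28 under anti-miR-501-3p, and Hs2st1 kept 0.11 under each.

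**Figure D5:**
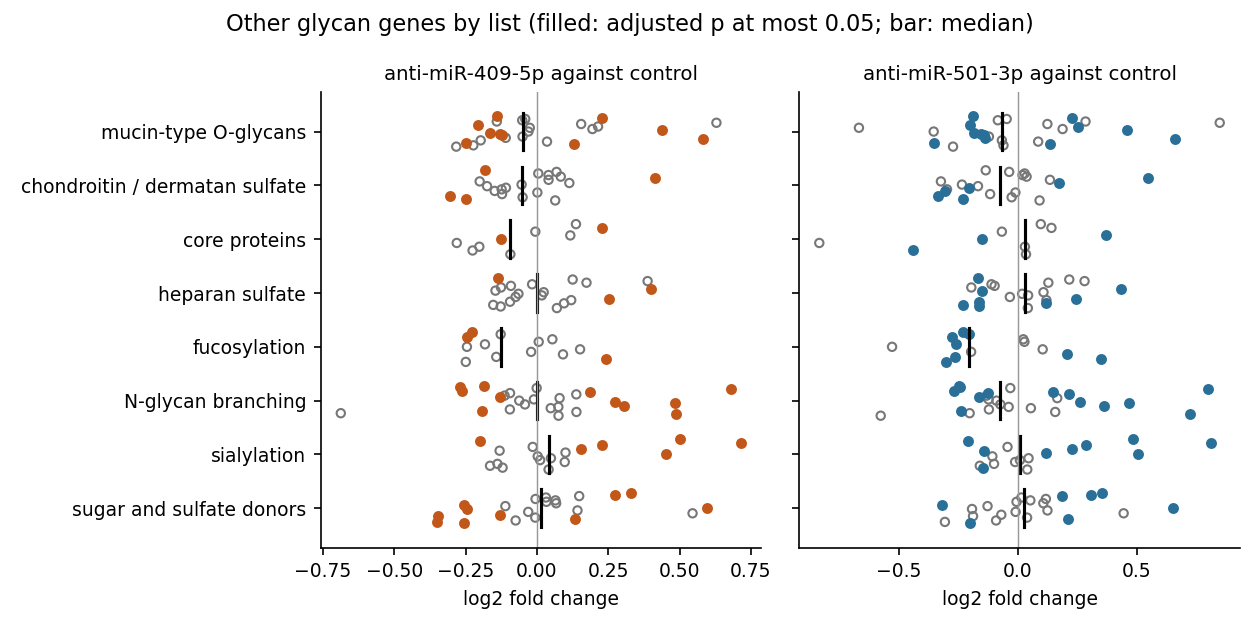
Log2 fold change (horizontal axis) of the 151 tested glycan genes other than the 6, by list, in the comparison of each anti-miR with control; filled points had an adjusted p of at most 0.05, open points did not, and bars are medians. Called genes lie on both sides of 0 in every list.

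Markers of the cell types that a hippocampal culture can hold were summed beside these values. RNA came from whole cultures, so fewer cells of a type and less RNA per cell cannot be told apart. The 9 neuron markers summed to 7247 to 7572 CPM under anti-miR-409-5p, 7111 to 7526 CPM under anti-miR-501-3p and 6966 to 7037 CPM in control. The 7 astrocyte markers summed to 4111 to 4346 CPM under anti-miR-409-5p, 3989 to 4171 CPM under anti-miR-501-3p and 3615 to 3772 CPM in control. Both sums were higher in every anti-miR library than in either control, but their members went both ways. Of the neuron markers, 5 were called higher with anti-miR-409-5p and 4 with anti-miR-501-3p, among them Map2, Snap25 and Syt1, and 4 were called lower with each, which were Rbfox3, Tubb3, Syn1 and Slc17a7. Of the astrocyte markers, 4 were called higher and 1 lower (Aldh1l1) with anti-miR-409-5p, and 3 higher and 2 lower (Aldh1l1 and S100b) with anti-miR-501-3p. The cultures thus held astrocyte transcripts beside those of neurons in all groups. The 8 markers of the oligodendrocyte lineage summed to 419.9 to 519.7 CPM under anti-miR-409-5p, 351.4 to 499.6 CPM under anti-miR-501-3p and 455.7 to 636 CPM in control. The 6 markers of microglia summed to 13.6 to 15.5 CPM under anti-miR-409-5p, 14.6 to 18.1 CPM under anti-miR-501-3p and 15.26 to 16.03 CPM in control. Both sums were far below those of neurons and astrocytes and overlapped between the groups. The 10 markers of endothelial, mural and fibroblast cells summed to 356.1 to 472.3 CPM under anti-miR-409-5p, 453.4 to 572.8 CPM under anti-miR-501-3p and 388 to 561.5 CPM in control. The 5 markers of proliferating progenitors summed to 205.1 to 245.4 CPM under anti-miR-409-5p, 165.4 to 223.5 CPM under anti-miR-501-3p and 179.4 to 242.1 CPM in control. These sums also overlapped with control. No marker was at 0 in all libraries, and Cldn5, which defines endothelial cells, averaged 0 CPM under anti-miR-409-5p, 0.0170 CPM under anti-miR-501-3p and 0.0523 CPM in control. The part of cell makeup in the values of the 6 genes was not tested.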

How the data were processed

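Per the labels' protocols, polyadenylated RNA of 10 libraries was prepared with the TruSeq RNA kit v2 and read in 50-base single ends on a HiSeq2000. The tools were STAR 2.5.2b, featureCounts, Subread 1.5.1 and FastQC 0.11.5 with build mm10, per the submitters' processing notes, and the annotation release, strand setting and treatment of multiply mapped reads are not given in the sources used here. The deposited files hold raw counts per gene and library. The tables of each anti-miR against control deposited by the authors hold normalized signal per library, log2 fold changes, a test score (the statistic column), p-values and adjusted p-values, per the file headers. From these tables only the log2 fold changes of the 6 genes were used.

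Everything else was computed from the counts with R 4.3.3. edgeR 4.0.16 (quasi-likelihood, robust, filterByExpr, TMM, prior count of 2 for log2 CPM) was fitted to all 10 libraries with 3 groups and no covariate, and tests were two-sided with Benjamini-Hochberg adjustment over 16884 genes at 0.05. Limma 3.58.1 supplied helper functions, and DESeq2 1.42.0 was an alternative. Symbols were matched by Ensembl identifier for 48349 of 48709 genes. GC content, length and 3′ UTRs came from the GENCODE annotation of mm10, and the trend on GC content and log length was removed as an offset of splines with 5 degrees of freedom, for the 99.7% of tested genes with these values. Pair ratios had 0.5 counts added to each gene. The edgeR fit without covariates was run on simulated counts for anti-miR-409-5p against control, with no GC trend in them. The other steps were not tested in this way.

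The 6 genes, the gene lists and the tests were chosen with earlier results of these data known. The genes named are the 6, genes among the 3 of smallest p per list and comparison with control, and the 3 most alike in pattern to C1galt1, Dsel and Fut9. St6galnac3 and St8sia3 also met this rule, were called higher under each anti-miR and are not described above. Not every value of the genes that met the rule is given. Gcnt1, Chst14, Fut4, Chsy1, Mgat2, Gne, B4galt5 and those named for keeping a call were chosen after their values were seen. Libraries of a group differed by more than sampling noise (chi-square per gene of at least 1.09, where noise alone gives 1). Intervals cover the spread between libraries. Replicate numbers come from the labels, and whether same-numbered libraries deviate together from their group means was checked. Between the anti-miRs all 4 pairs did, at r over 0.1, and the blocked fit is given beside that comparison. Of differently numbered libraries in different groups, 5 of 24 pairs also had r over 0.1. Pairs with control in this count are not separate, since the 2 controls deviate from their mean by equal and opposite amounts. Against control there were 2 pairs per comparison (r between 0.0423 and 0.293 for anti-miR-409-5p and between 0.211 and 0.359 for anti-miR-501-3p).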

Additional observations from a re-analysis of the deposited data

Results flagged for a closer look

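In a group of 4 libraries, a highest or lowest library that lay far from the other 3 was sought by Dixon's criterion at 95%. It was found in 9 of 100 groups of named genes, pair ratios, library slopes on GC content and total counts. Chance alone gives about 1 in 20, but the groups share the same libraries and are not independent. Among the 6 genes' own values, the log2 ratio of C1galt1 to C1galt1c1 was 1.24 in anti-miR-409-5p replicate 1, against 1.45 to 1.48 in the other 3.

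Anti-miR-501-3p replicate 1 stood apart in log2 CPM for 5 genes. Galnt10 had 4.73 there, against 4.38 to 4.43 in the other 3, and Bcan had 7.69, against 7.53 to 7.54. Galnt9 had 5.19, against 5.13. Tmem47 had 6.35, against 6.59 to 6.61, and Ube2v2 had 5.14, against 5.47 to 5.49. Galnt10, Bcan and Galnt9, which were lower than in control, were high in this library, and Tmem47 and Ube2v2, which were higher than in control, were low in it. The library's slope on GC content, 0.0078 per 10 percentage points, was the highest of its group, and the part of the slope was not tested.

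In the other cases, Slc35c2 had 5.46 in anti-miR-501-3p replicate 4, against 5.67 to 5.71, Galnt10 had 4.51 in anti-miR-409-5p replicate 4, against 4.61 to 4.63, and B3gnt5 had 4.05 in anti-miR-409-5p replicate 1, against 4.39 to 4.45.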

How the results depend on the processing

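Control has 2 libraries, and this limits every value against it. Values are log2 fold changes against control unless given as counts or otherwise named. With the GC and length trend removed, 892 genes and 6 glycan genes were called under anti-miR-409-5p, where C1galt1 had 0.34, Dsel 0.30, Fut9 0.23, C1galt1c1 −0.20 and Fut8 −0.082. Signs turned there for Vcan (−0.077), Dcn (−0.080), Fpgt (−0.14), Fuca2 (−0.080), Mgat4c (−0.036), Ugp2 (−0.12) and Xiap (−0.043). Under anti-miR-501-3p, 1327 genes and 10 glycan genes were called, and C1galt1 had 0.39, Dsel 0.34, Fut9 0.20, C1galt1c1 −0.27, Fut8 −0.13 and Dse −0.025. Signs turned there for B3gat3 (0.031), Ptprz1 (−0.042), Vcan (−0.12), Fpgt (−0.089), Mgat4c (−0.033), Ugp2 (−0.16), mt-Rnr2 (−0.030) and Xiap (−0.023). The cause was not tested. C1galt1c1 under anti-miR-409-5p had 0.12 with upper-quartile and 0.11 with total-count scaling. Under anti-miR-501-3p, Dsel had 0.66 with upper-quartile and 0.65 with total-count scaling, and Dse had −0.030 with total-count scaling.

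Against control the numbers share too few pairs to show pairing. With the replicate block, Dse had −0.025 under anti-miR-501-3p, and 252 genes and 4 glycan genes differed between the anti-miRs. The block changed the call of none of the 6 between the anti-miRs. With replicate block and trend removal together, 971 genes and 8 glycan genes were called under anti-miR-409-5p, where C1galt1 had 0.35, Dsel 0.32, Fut9 0.22, C1galt1c1 −0.15 and Fut8 −0.085. Under anti-miR-501-3p 1439 genes and 14 glycan genes were called, and C1galt1 had 0.40, Dsel 0.35, Fut9 0.19, C1galt1c1 −0.23, Fut8 −0.13 and Dse −0.062. Between the anti-miRs 186 genes and 3 glycan genes were called. Signs turned in this paired fit under anti-miR-409-5p for Vcan (−0.095), Dcn (−0.090), Extl3 (0.0053), Fpgt (−0.14), Slc35c2 (0.011), Fuca2 (−0.078) and Ugp2 (−0.079), and under anti-miR-501-3p for B3gat3 (0.029), Ptprz1 (−0.057), Vcan (−0.14), Fpgt (−0.089), Slc35c2 (0.014) and Ugp2 (−0.11). Between the anti-miRs, Fut9 turned to 0.027 with the trend removed, with and without the block. Counts between the anti-miRs were 42 genes and 1 glycan gene without the low-count filter, 3 genes with DESeq2, 1 with only the groups compared and 2 with the trend removed.

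With each library left out in turn, 1302 to 5111 genes and 18 to 58 glycan genes were called under anti-miR-409-5p, 1800 to 6075 and 24 to 75 under anti-miR-501-3p, and 0 to 1 and 0 between the anti-miRs. Under anti-miR-409-5p the ranges were 0.62 to 0.85 for C1galt1, 0.60 to 0.67 for Dsel, 0.91 to 1.14 for Fut9, 0.15 to 0.18 for C1galt1c1, 0.11 to 0.17 for Fut8 and −0.070 to 0.037 for Dse. Under anti-miR-501-3p they were 0.72 to 0.95 for C1galt1, 0.69 to 0.72 for Dsel, 0.98 to 1.21 for Fut9, 0.13 to 0.18 for C1galt1c1, 0.087 to 0.15 for Fut8 and −0.013 to 0.071 for Dse. Between the anti-miRs they were −0.13 to −0.054 (C1galt1), −0.024 to 0.030 (C1galt1c1), −0.098 to −0.035 (Dsel), −0.093 to 0.0013 (Dse), −0.17 to 0.025 (Fut9) and −0.010 to 0.049 (Fut8), and for the log2 ratios −0.13 to −0.049 (C1galt1 over C1galt1c1), −0.067 to 0.021 (Dsel over Dse) and −0.20 to 0.0068 (Fut9 over Fut8). Dcn turned to −0.046 under anti-miR-409-5p without control replicate 1 and had 0.33 without control replicate 2. Where an arm was left with 1 library, that library was assumed to vary like the other groups. Searching all annotated 3′ UTRs gave the same site counts.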

Other observations

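Of 9 core proteins that carry chondroitin and dermatan sulfate, 1 was called higher and 1 lower with anti-miR-409-5p, and 1 higher and 2 lower with anti-miR-501-3p. These shares, 22.2% under anti-miR-409-5p and 33.3% under anti-miR-501-3p, lie near the 27.8% and 33% of all tested genes called in the same comparisons. Bcan (brevican) had 221 ± 13.3 CPM under anti-miR-409-5p, 191 ± 10.3 CPM under anti-miR-501-3p and 259 ± 48.0 CPM in control (SD), and it fell by 0.44 on the log2 scale under anti-miR-501-3p (edgeR, adjusted p = 0.00584). Bcan fell by 0.23 under anti-miR-501-3p without control replicate 1 (adjusted p = 0.0493) and by 0.61 without control replicate 2. Ncan (neurocan), outside the rule for named genes, had 1051 CPM under anti-miR-409-5p, 1007 CPM under anti-miR-501-3p and 1055 CPM in control, and was not called. Cspg5 (neuroglycan C) fell by 0.13 under anti-miR-409-5p and by 0.15 under anti-miR-501-3p. The calls of Cspg5 ended without control replicate 1, with an adjusted p of 0.376 under anti-miR-409-5p and 0.211 under anti-miR-501-3p. Ptprz1, a receptor phosphatase that carries chondroitin sulfate, had 0.23 under anti-miR-409-5p (adjusted p = 0.026), which was 0.0639 without control replicate 1 and 0.168 without control replicate 2. With the GC and length trend removed, none of the 9 was called. Cspg5 then had −0.11 under each anti-miR, close to its values as counted, Bcan had −0.23 under anti-miR-501-3p, and Ptprz1 had 0.047 under anti-miR-409-5p.

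Of 22 genes for sugar and sulfate donors, 4 were higher and 6 lower with anti-miR-409-5p, and 5 higher and 2 lower with anti-miR-501-3p. Slc35a3, a Golgi transporter of UDP-N-acetylglucosamine, rose by 0.60 ± 0.11 under anti-miR-409-5p (adjusted p = 0.0011) and by 0.66 ± 0.11 under anti-miR-501-3p (adjusted p = 0.000379). Uxs1, which makes UDP-xylose for the proteoglycan linker, rose by 0.33 ± 0.06 under anti-miR-409-5p and by 0.35 ± 0.06 under anti-miR-501-3p. With the GC and length trend removed Slc35a3 had 0.15 and Uxs1 0.091 under anti-miR-409-5p, and Slc35a3 had 0.16 and Uxs1 0.090 under anti-miR-501-3p, and none of these passed the threshold.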
